A study of Mus musculus with 12 samples.

Results

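Cytochrome P450 family 2 was described in the livers of mice with and without the aryl hydrocarbon receptor, Ahr. The members were selected on their symbol and their total count: gene symbols made of Cyp2, a letter and digits, with at least 10 counts summed over the 12 libraries and without pseudogene names. Of 47 rows with such a symbol 40 were members, among 27304 genes in all. They fell into 4 Cyp2a, 3 Cyp2b, 14 Cyp2c, 8 Cyp2d and 4 Cyp2j genes, and 1 gene each of Cyp2e, Cyp2f, Cyp2g, Cyp2r, Cyp2s, Cyp2t and Cyp2u. At the edge of the rule, Cyp2c65 had 10 counts and was a member, while Cyp2j11 had 6 counts and was not. The other 6 rows left out (Cyp2b19, Cyp2b23, Cyp2c66, Cyp2j12, Cyp2j13 and Cyp2w1) had 0 to 4 counts. The rule used the total count and no contrast between groups, and the family was chosen as a subject with earlier results of these data known.

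P450 enzymes are haem proteins of the endoplasmic reticulum that insert an oxygen atom into their substrates, with electrons from the reductase Por. Family 2 holds many of the liver enzymes that oxidise drugs and other foreign chemicals, and some members oxidise steroids, bile acids or polyunsaturated fatty acids. In rodents several subfamilies grew by repeated gene duplication, so that near-identical genes lie side by side. Their levels are known to differ between male and female livers, largely through the pattern of growth hormone release and the factor STAT5, and many are raised by the chemical sensors CAR (Nr1i3) and PXR (Nr1i2). Several, such as Cyp2e1 and Cyp2a5, are made mainly by hepatocytes around the central vein, while Cyp2f2 is made around the portal vein. The receptor Ahr is best known for driving family 1 genes rather than family 2.

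RNA-seq was run on total RNA from whole livers of 12 mice that all lacked apolipoprotein E (Apoe-/-) and had 12 weeks on a diet labelled HFD. There were 4 groups of 3: Ahr-null males (Apoe-/-AhR-/-), control males (Apoe-/-), Ahr-null females (Apoe-/-AhR-/-) and control females (Apoe-/-). The sources used here do not give the Ahr and Apoe alleles, whether Ahr was lost in every cell type, or the age of the mice. Levels are given as CPM, the deposited counts scaled to a common library total after TMM normalization. Fold changes are log2 values of Ahr-null over control livers, or of male over female livers, ± their standard error (SE). A gene was called at an edgeR adjusted p under 0.05 over all tested genes, and the p-values measure only the spread between these livers.

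Library totals ran from 9794253 to 18924880 counts, of which 30.4% to 69.8% came from 13 mitochondrially encoded genes. Ahr transcripts did not part the genotypes (log2 fold change 0.13 ± 0.18 averaged over the sexes, edgeR adjusted p = 0.800), while its target Cyp1a2 fell by 3.05 ± 0.36 (adjusted p = 0.00663). A count over the whole gene does not test for a deleted exon. Of the 20 markers of neurons and glia, all had counts, and their sum reached 380 CPM in Ahr-null female 1 and 212 CPM in control male 1, against 17.2 to 41.6 CPM elsewhere. Ahr-null female 1 also stood apart over all genes, with correlations of 0.805 and 0.811 to the other livers of its group, against 0.938 to 0.979 for the other replicate pairs. Its Xist level was 155 CPM, while the other 5 females had 679 to 1292 CPM and the 6 males 2.33 to 13.3 CPM. The Y-linked gene Eif2s3y had 2.11 CPM in that library, against a range of 0 to 0.982 CPM among the other 5 females and of 29.6 to 47.5 CPM among the 6 males. Kdm5d, also Y-linked, had 2.02 CPM there, while its range was 0 to 0.207 CPM among the 5 females and 5.21 to 8.61 CPM among the 6 males. Whether this library holds RNA from more than 1 mouse was not tested. The summed level of 9 hepatocyte markers was also highest there, at 73258 CPM against 20412 to 40840 CPM in the other libraries. Each result is therefore given for all 12 libraries and, where a call or value moved, for the 10 libraries without Ahr-null female 1 and control male 1, which leaves 2 livers in each of those groups.

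The members lie in a few clusters of the genome (GENCODE annotation of GRCm38). The 14 Cyp2c genes are on chromosome 19, the 8 Cyp2d genes on chromosome 15, the 4 Cyp2j genes on chromosome 4, Cyp2u1 on chromosome 3 and the other 13 on chromosome 7. Cyp2c37 (chr19:39992424-40012243), Cyp2c54 (chr19:40037940-40073827) and Cyp2c50 (chr19:40089688-40113950) follow each other with gaps of 25696 and 15860 bp. Coding sequences within a subfamily were often nearly the same. Cyp2a4 and Cyp2a5 shared 98.4% of their bases, Cyp2c40 shared 98.1% with Cyp2c68, 97.9% with Cyp2c69 and 97.7% with Cyp2c67, and Cyp2a12 shared 97.0% with Cyp2a22. Cyp2c37 and Cyp2c50 shared 96.1%, Cyp2c50 and Cyp2c54 95.2%, and Cyp2b9 and Cyp2b13 92.7%. The counter, its strand setting and its treatment of reads that match several genes are not named, so the counts of such neighbours may be divided uncertainly among them.

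Promoters were compared because the members that moved most lie beside close copies. RefSeq sequences (GRCm38.p6, 250 bases before to 50 after the start, read 5′ to 3′ on the gene's strand) were found for 33 of the 40 members; those of Cyp2c23, Cyp2c54, Cyp2d12, Cyp2d22, Cyp2d34, Cyp2g1 and Cyp2u1 were not used here. Pairs that carry the results on Cyp2c and Cyp2b are shown, and capitals mark the bases without a match in the partner. Cyp2c37 and Cyp2c50 were both lower in Ahr-null livers and had 89.5% identical bases over 295 aligned positions.
Cyp2c37, chr19:39992174-39992473, plus strand: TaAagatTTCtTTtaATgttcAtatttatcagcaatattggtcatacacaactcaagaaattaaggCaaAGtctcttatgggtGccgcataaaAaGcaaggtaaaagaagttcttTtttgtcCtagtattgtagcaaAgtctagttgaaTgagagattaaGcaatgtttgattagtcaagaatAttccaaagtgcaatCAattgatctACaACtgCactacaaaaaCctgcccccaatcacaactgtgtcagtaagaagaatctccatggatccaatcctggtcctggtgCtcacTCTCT
Cyp2c50, chr19:40089429-40089728, plus strand: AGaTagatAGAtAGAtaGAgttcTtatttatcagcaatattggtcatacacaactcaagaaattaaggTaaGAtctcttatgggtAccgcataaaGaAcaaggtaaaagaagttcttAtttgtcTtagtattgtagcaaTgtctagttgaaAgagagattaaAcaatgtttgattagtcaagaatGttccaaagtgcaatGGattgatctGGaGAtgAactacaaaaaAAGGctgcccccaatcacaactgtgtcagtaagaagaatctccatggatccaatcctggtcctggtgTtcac

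Cyp2c69 and Cyp2c40, close copies whose levels were higher in control females than in control males, shared 98.9% of 270 aligned bases, and differed at 3 of them and in where the sequence ends.
Cyp2c69, chr19:39886720-39887019, minus strand: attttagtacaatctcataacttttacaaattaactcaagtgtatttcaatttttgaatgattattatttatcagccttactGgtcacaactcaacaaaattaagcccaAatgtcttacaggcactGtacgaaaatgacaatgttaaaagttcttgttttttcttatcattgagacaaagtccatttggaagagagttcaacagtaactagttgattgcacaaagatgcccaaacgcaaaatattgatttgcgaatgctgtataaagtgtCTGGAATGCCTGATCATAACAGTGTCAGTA
Cyp2c40, chr19:39812765-39813064, minus strand: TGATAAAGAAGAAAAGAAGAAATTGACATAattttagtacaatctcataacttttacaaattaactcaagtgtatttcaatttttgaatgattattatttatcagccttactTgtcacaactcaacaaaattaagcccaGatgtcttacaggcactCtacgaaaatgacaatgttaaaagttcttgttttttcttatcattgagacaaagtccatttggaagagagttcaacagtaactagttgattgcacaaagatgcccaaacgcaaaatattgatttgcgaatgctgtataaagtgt

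Cyp2b9 and Cyp2b13, whose counts were high in the same 2 Ahr-null females, differed at 2 of 300 bases.
Cyp2b9, chr7:26173159-26173458, plus strand: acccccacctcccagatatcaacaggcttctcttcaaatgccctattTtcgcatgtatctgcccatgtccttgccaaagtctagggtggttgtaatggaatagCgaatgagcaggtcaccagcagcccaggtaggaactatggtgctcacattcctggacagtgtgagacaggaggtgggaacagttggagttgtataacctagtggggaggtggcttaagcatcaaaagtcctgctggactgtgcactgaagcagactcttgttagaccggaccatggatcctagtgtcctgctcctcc
Cyp2b13, chr7:26061245-26061544, plus strand: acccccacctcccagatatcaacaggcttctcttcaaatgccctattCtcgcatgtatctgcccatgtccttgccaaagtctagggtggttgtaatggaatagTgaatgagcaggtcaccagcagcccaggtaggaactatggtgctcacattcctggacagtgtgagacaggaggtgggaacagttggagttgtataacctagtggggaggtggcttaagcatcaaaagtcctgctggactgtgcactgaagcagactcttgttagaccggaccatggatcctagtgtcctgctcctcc

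The core of the site bound by Ahr with its partner Arnt, GCGTG on either strand, was sought in all promoters of the table. It was found in 4 of 34 promoters of members (11.8%, with 2 promoters for 1 member), against 10639 of 32851 promoters in the genome (32.4%). These were the promoters of Cyp2b10 (2 matches), Cyp2c68, Cyp2j9 and Cyp2r1 (1 match each). The Cyp2b10 promoter is shown with both matches in capitals.
Cyp2b10, chr7:25897408-25897707, plus strand: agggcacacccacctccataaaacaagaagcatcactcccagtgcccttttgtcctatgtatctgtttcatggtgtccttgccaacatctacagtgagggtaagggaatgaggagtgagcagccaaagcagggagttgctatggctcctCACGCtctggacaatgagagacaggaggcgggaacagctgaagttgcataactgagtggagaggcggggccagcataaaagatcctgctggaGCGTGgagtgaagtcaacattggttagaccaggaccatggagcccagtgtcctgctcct
The STAT5 motif TTCNNNGAA was found in 0 of 34 promoters of members and in 8.30% of all promoters. That motif reads alike on both strands and shares no stretch with GCGTG. A match of letters is a description of the window and not a bound site, and no match says only that the letters are not there.

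Per kilobase of exon, the family spanned from abundant liver transcripts to traces. Over all 12 libraries the highest mean levels were those of Cyp2a5 (298 CPM per kb), an oxidase of coumarin and nicotine, Cyp2e1 (262 CPM per kb), which oxidises ethanol and paracetamol, Cyp2a4 (216 CPM per kb), a testosterone hydroxylase, Cyp2d10 (185 CPM per kb) and Cyp2c54 (167 CPM per kb). In Ahr-null males Cyp2e1 led with 180.1 ± 57.4 CPM per kb (SD, n = 3) and Cyp2d10 followed with 177 ± 33.9. In control males Cyp2e1 led with 402 ± 88.6 CPM per kb, ahead of Cyp2d9 with 311 ± 43 and Cyp2c54 with 269 ± 70.6. In Ahr-null females Cyp2a4 led with 406 ± 38.7 CPM per kb and Cyp2a5 followed with 317 ± 83.9. In control females Cyp2a5 led with 516 ± 174 CPM per kb, ahead of Cyp2e1 with 330.1 ± 165 and Cyp2c37 with 285 ± 40.5. Each step between these neighbours in the order was about as large as the larger of their SDs or smaller. Cyp2c54 had 85.4 ± 78.9 CPM per kb in Ahr-null males, where the control males are given above, and 46.3 ± 26.7 CPM per kb in Ahr-null females against 266 ± 37.3 CPM per kb in control females. At the low end, 9 of the 40 members averaged under 1 CPM per kb. The least were Cyp2c65, the epithelial gene Cyp2s1 and Cyp2t4, with 0.0210, 0.103 and 0.162 CPM per kb.

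**Figure D1:**
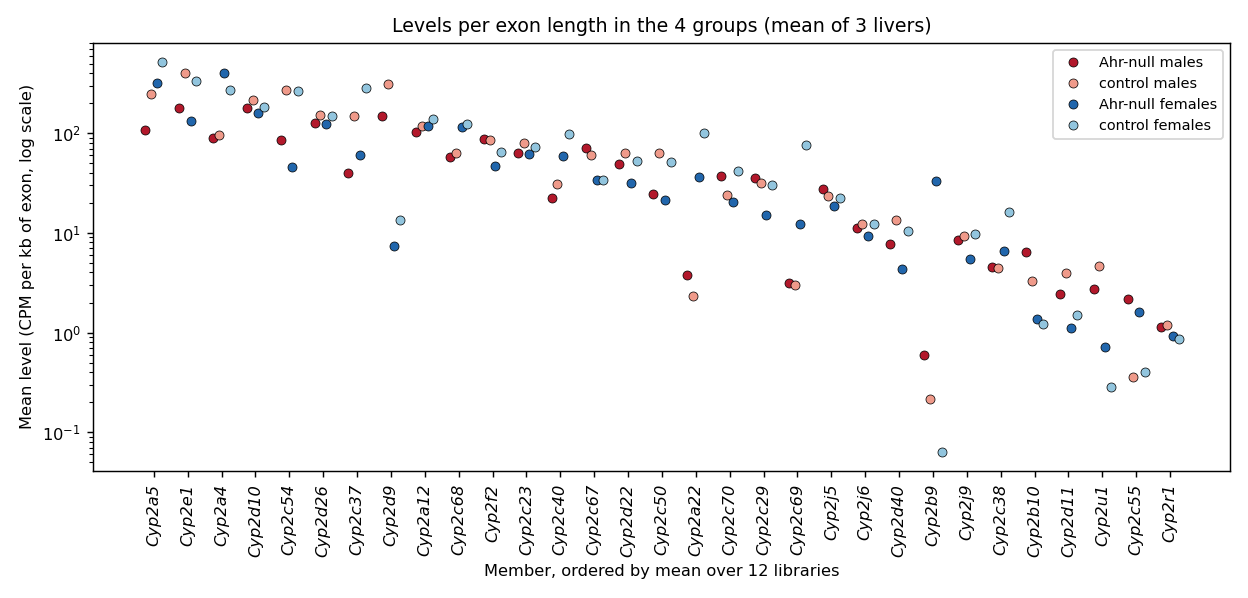
Mean level of 3 livers in CPM per kb of exon (log axis) for the 31 members with a mean of at least 1 over the 12 libraries, ordered by that mean, with a point for each of the 4 groups. Cyp2a5, Cyp2e1 and Cyp2a4 stand at the left, and the widest gaps between groups are those of Cyp2d9, Cyp2a22, Cyp2c69 and Cyp2b9.

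The question of the main comparison was how the loss of Ahr changed these transcripts. Summed over the family, the members took a smaller share of the counts of nuclear genes in Ahr-null livers of either sex. The share was 0.688%, 0.766% and 0.838% in Ahr-null males against 0.977%, 1.25% and 1.07% in control males, and 0.804%, 0.834% and 1.04% in Ahr-null females against 1.36%, 1.11% and 1.29% in control females. The groups did not overlap in either sex. As shares of all counts, mitochondrial genes included, they did: 0.362% to 0.583% in Ahr-null males against 0.417% to 0.597% in control males, and 0.402% to 0.484% in Ahr-null females against 0.335% to 0.590% in control females. The 9 hepatocyte markers, which include Alb and the member Cyp2e1, are thus not independent of the family. They summed to 24383 to 40840 CPM in Ahr-null males against 20412 to 26553 CPM in control males, which overlapped. In females they summed to 26291 to 73258 CPM in Ahr-null livers against 21329.6 to 24818 CPM in control livers, which did not overlap. With Alb also left out of the nuclear total, the share was 0.704% to 0.881% in Ahr-null males against 0.988% to 1.27% in control males. In females it was 0.862% to 1.09% in Ahr-null livers against 1.13% to 1.39% in control livers, and the groups did not overlap in either sex. The part of the other markers in the share was not tested. In whole-liver RNA, fewer cells that make a transcript and less of it per cell cannot be told apart.

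Of the 40 members 36 passed the low-count filter and were tested. Of these, 28 were above its cut of 0.687 CPM in all 12 libraries and 4 (Cyp2b9, Cyp2c39, Cyp2d34 and Cyp2s1) in 6 libraries or fewer. Averaged over the sexes, 1 of the 36 passed the edgeR test, Cyp2c54, which fell (2.78%, against 1.06% of the 13641 tested genes, 0.528% of them lower). In the 10 libraries 8 fell and 0 rose, against 3.14% of all tested genes (1.5% higher and 1.63% lower). The 8 were Cyp2c37, Cyp2c40, Cyp2c50, Cyp2c54, Cyp2c69, Cyp2d9, Cyp2e1 and Cyp2g1. The median log2 fold change of the members was -0.39, with 8 of 36 above 0, against 0.04 over all tested genes. With library size alone as the scaling, these medians were 0.12 and 0.53, so the members' median lay below that of all genes under either scaling.

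The genes that parted the genotypes in both sexes were few, and 3 of the 6 were the neighbouring genes Cyp2c37, Cyp2c54 and Cyp2c50. In 6 of 36 members every Ahr-null liver lay on the same side of every control liver in males and also in females, against 2.9% of tested genes (1.28% higher and 1.62% lower). Cyp2c37, Cyp2c50, Cyp2c54, Cyp2d9 and Cyp2e1 were on the lower side and Cyp2c55 on the higher. Cyp2c54 (ENSMUSG00000067225), which oxidises arachidonic and linoleic acid, had 67.3, 315 and 75 CPM in Ahr-null males 1, 2 and 3 against 620.3, 447 and 375 CPM in control males, and 117, 28.1 and 103 CPM in Ahr-null females against 399, 501 and 524 CPM in control females. Ahr-null male 2 was the closest to its controls. The averaged log2 fold change was -2.09 ± 0.44 (edgeR adjusted p = 0.0424, and 0.0373 in the 10 libraries). The call was lost when any 1 of 10 libraries was left out, all but Ahr-null male 2 and Ahr-null female 1, with fold changes of -1.71 to -2.64 over all alternatives.

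Cyp2c37 (ENSMUSG00000042248), a neighbour of Cyp2c54, had 30.7, 137 and 50.4 CPM in Ahr-null males against 352, 299 and 169 CPM in control males. In females it had 207, 33.1 and 87.1 CPM in Ahr-null livers against 447, 517 and 595 CPM in control livers. Again Ahr-null male 2 was the highest male of its genotype, and Ahr-null female 1 the highest female. Averaged over the sexes, the fold change was -2.08 ± 0.46 (edgeR adjusted p = 0.0509), and it was -2.39 ± 0.42 in the 10 libraries (adjusted p = 0.0112). Cyp2c50 (ENSMUSG00000054827), the other neighbour, had 29.5, 103 and 80.8 CPM in Ahr-null males against 212, 201 and 137 CPM in control males. Its levels were 122, 20.3 and 46.9 CPM in Ahr-null females against 122, 155 and 177 CPM in control females, where the highest Ahr-null liver and the lowest control liver all but met. Its averaged fold change was -1.32 ± 0.40 (edgeR adjusted p = 0.151), and it was -1.70 ± 0.34 in the 10 libraries (adjusted p = 0.0211). Cyp2c37 also varied together with Cyp2c54 and Cyp2c50 among livers of a group. Deviations of log2(CPM + 1) from the group means correlated at 0.92 for Cyp2c37 with Cyp2c54 and at 0.94 for Cyp2c37 with Cyp2c50 over 12 libraries (0.95 and 0.91 over 10). Genes counted in the same library share its depth, and these genes also share sequence, so the values are descriptions.

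**Figure D2:**
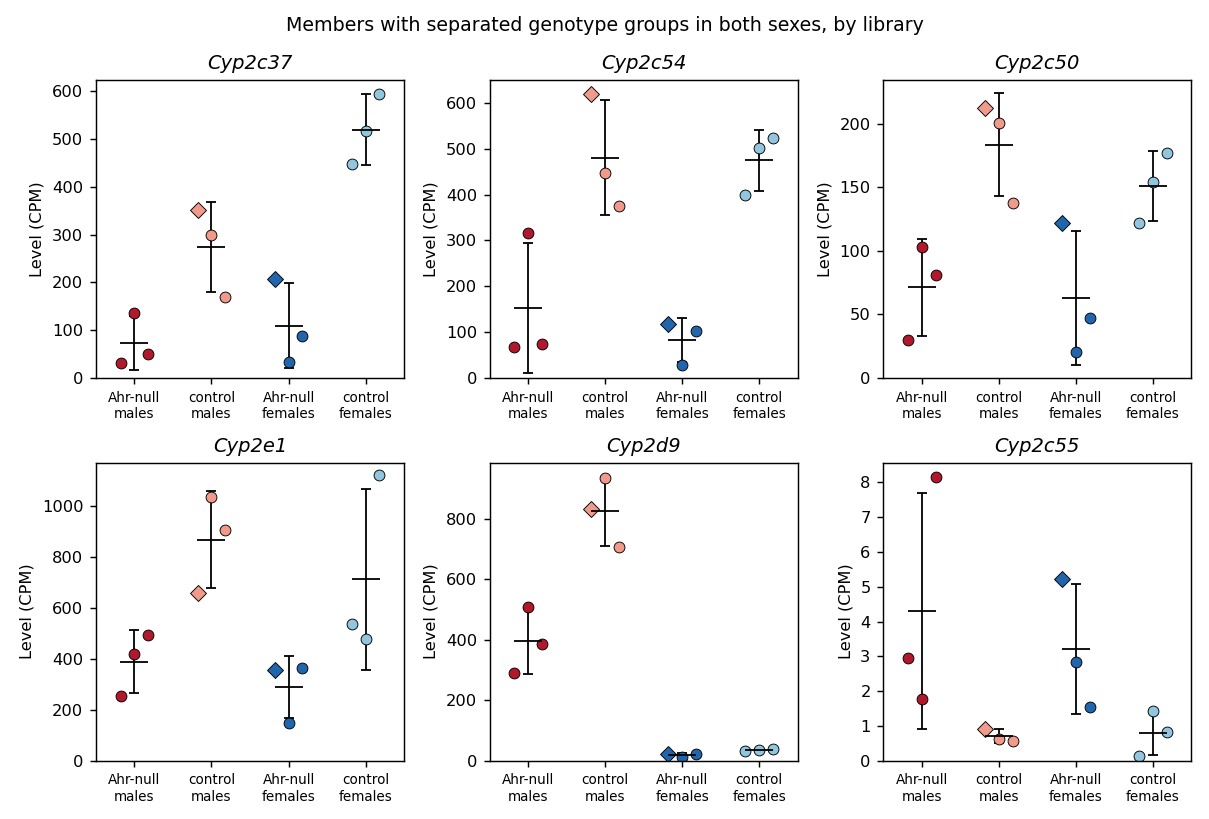
CPM in each liver (points) with the mean and SD of 3 (bars) for the 6 members whose genotype groups did not overlap in either sex; diamonds mark control male 1 and Ahr-null female 1. Ahr-null livers lie below their controls for Cyp2c37, Cyp2c54, Cyp2c50, Cyp2e1 and Cyp2d9 and above them for Cyp2c55, and Cyp2d9 is under 40 CPM in every female.

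Cyp2e1 (ENSMUSG00000025479), the ethanol-inducible enzyme of pericentral hepatocytes, had 253, 418 and 495 CPM in Ahr-null males against 660.1, 1037 and 906 CPM in control males. It had 357, 147 and 363 CPM in Ahr-null females against 538, 477 and 1122 CPM in control females. Control female 3 was far above the other control females. The averaged fold change of Cyp2e1 was -1.23 ± 0.32 (edgeR adjusted p = 0.0939, and 0.0391 in the 10 libraries). Cyp2d9 (ENSMUSG00000068086), a male-biased testosterone hydroxylase, had 291, 509 and 386 CPM in Ahr-null males against 833, 936 and 708 CPM in control males. In females it had 22.9, 13.7 and 22 CPM in Ahr-null livers against 32.5, 35.2 and 39.6 CPM in control livers, so the genotypes parted at high levels in one sex and at low levels in the other. Over both sexes the fold change of Cyp2d9 was -0.97 ± 0.22 (edgeR adjusted p = 0.0589, and 0.0319 in the 10 libraries).

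The other Cyp2d genes lay on the same side without passing. All 8 Cyp2d members had negative fold changes averaged over the sexes, from -1.38 for Cyp2d34 to -0.25 for Cyp2d10 with a median of -0.67. All 8 were also negative in each sex. Cyp2d34, at the end of that range, had 122 counts over the 12 libraries and is limited by depth. It was above the filter's cut in 3 control males and in 1 liver of each other group. With library size alone as the scaling, 6 of 8 were negative in the average, 5 in males and 4 in females, beside an all-gene median that had moved to 0.53 in the average. Cyp2d10, the most abundant of them per kb, had 229, 313 and 334 CPM in Ahr-null males against 323, 381 and 369 CPM in control males, and 361, 173 and 257 CPM in Ahr-null females against 336, 194 and 384 CPM in control females. Its groups overlapped in both sexes, and the test did not pass (-0.25 ± 0.25, edgeR adjusted p = 0.691). Cyp2a5 (ENSMUSG00000005547) had 279, 124 and 270.4 CPM in Ahr-null males against 467, 622 and 461 CPM in control males. It had 506, 848 and 618 CPM in Ahr-null females against 1484, 824 and 901 CPM in control females, where 1 Ahr-null liver lay within the controls. The fold change of Cyp2a5 was -0.95 ± 0.28 (edgeR adjusted p = 0.131, and 0.105 in the 10 libraries). Cyp2g1, a gene of the olfactory mucosa, was near the detection limit with 0.197, 0.233 and 0.395 CPM in Ahr-null males against 0.926, 1.16 and 1.15 CPM in control males, and 1.75, 0.662 and 1.10 CPM in Ahr-null females against 3.04, 1.96 and 0.999 CPM in control females. Its male groups parted and its female groups overlapped, with a fold change of -1.36 ± 0.38 (edgeR adjusted p = 0.115, and 0.0446 in the 10 libraries).

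Few members had higher values in Ahr-null livers. Cyp2c55 (ENSMUSG00000025002), a hydroxylase of arachidonic acid that is raised by CAR and PXR activators, had 2.96, 1.78 and 8.17 CPM in Ahr-null males against 0.926, 0.620 and 0.574 CPM in control males. It had 5.24, 2.83 and 1.55 CPM in Ahr-null females against 0.138, 1.42 and 0.833 CPM in control females. All 6 Ahr-null livers were above all 6 controls, at low levels throughout. Its averaged fold change was 2.33 ± 0.52, just short of the threshold (edgeR adjusted p = 0.0543, and 0.0509 in the 10 libraries). Cyp2b10 (ENSMUSG00000030483), the classical target of CAR, had 8.05, 14.4 and 18 CPM in Ahr-null males against 10.9, 4.57 and 5.48 CPM in control males. In females it had 2.11, 1.92 and 4.64 CPM in Ahr-null livers against 2.28, 2.29 and 3.16 CPM in control livers, and the groups overlapped in both sexes. Its fold change was 0.57 ± 0.31 in the average (edgeR adjusted p = 0.409), and with library size alone as the scaling it was called as higher.

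Cyp2b9 and Cyp2b13, neighbouring steroid hydroxylase genes on chromosome 7, were high in 2 Ahr-null females. Cyp2b9 (ENSMUSG00000040660) had 181, 1 and 3059 counts in Ahr-null females 1, 2 and 3 against 4, 0 and 1 counts in control females. In males it had 1, 0 and 84 counts in Ahr-null livers against 0, 0 and 19 counts in control livers. The level in Ahr-null female 3 was 169 CPM, while Ahr-null female 2 was as low as the controls, so the groups overlapped. Cyp2b9 was above the filter's cut in 2 Ahr-null females, 1 Ahr-null male, 1 control male and 0 control females. It was thus tested only through the Ahr-null livers where it was high, and its values are not read as a genotype difference. The fitted log2 fold change in females was 8.74 ± 2.36 (edgeR adjusted p = 0.160), a value that rests on a few counts in the controls and ranged from 5.51 to 10.2 over the alternatives. Cyp2b13 did not pass the filter and had 21, 1 and 359 counts in Ahr-null females against 0, 0 and 0 in control females (3 counts over the group would be 0.0841 CPM), and 0, 0 and 2 in Ahr-null males against 1, 0 and 2 in control males. With coding sequences 92.7% identical, part of its counts may belong to Cyp2b9.

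**Figure D3:**
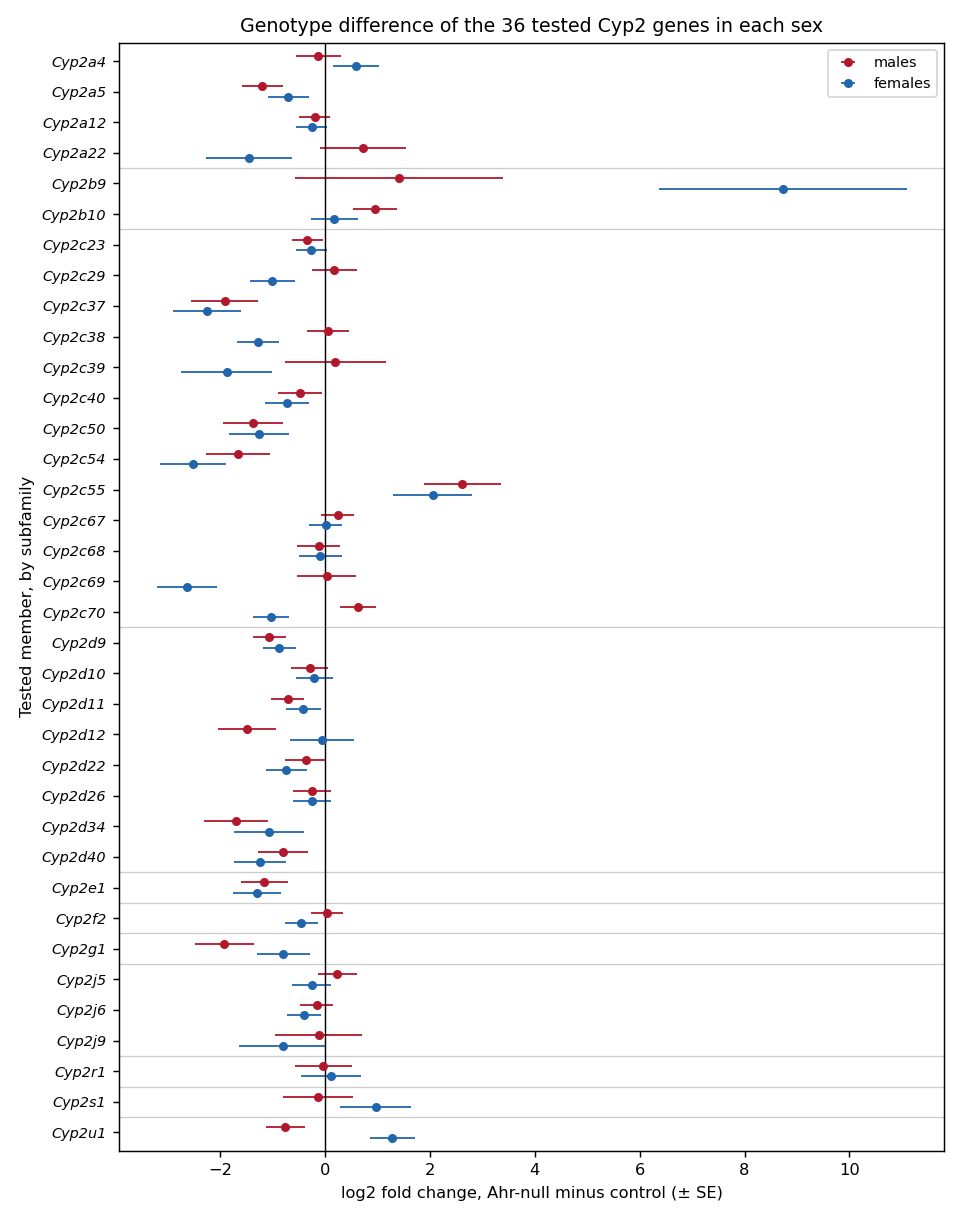
Log2 fold change, Ahr-null minus control, ± SE for the 36 tested members in males and in females from 1 edgeR fit of 12 libraries, ordered by subfamily. Most points lie left of 0, the Cyp2d genes all do, and Cyp2c55 and Cyp2b9 lie to the right in both sexes.

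Within a sex, 0 of 36 members passed with all 12 libraries. In males edgeR called 0 members, against 0.0367% of all tested genes (0.0147% higher and 0.022% lower). Of the members 12 had an unadjusted p under 0.05, against 5.81% of all tested genes. DESeq2 called 2 members (Cyp2c55 higher and Cyp2d9 lower), against 0.782% of genes, and limma-voom called 0, against 0.022%. The groups of males parted in 12 members, 1 higher and 11 lower, against 13.9% of tested genes (6.55% higher and 7.34% lower). In females edgeR called 0 members, against 0.161% of all tested genes (0.0293% higher and 0.132% lower). An unadjusted p under 0.05 was found for 13 members, against 14.4% of all tested genes. DESeq2 called 4 members (Cyp2b9 higher, and Cyp2c37, Cyp2c54 and Cyp2c69 lower), against 3.62% of genes, and limma-voom called 0, against 0.242%. The call of Cyp2b9 is not read as a genotype difference, since it passed the filter only through Ahr-null livers. The groups of females parted in 13 members, 3 higher and 10 lower, against 19.1% of tested genes (9.22% higher and 9.86% lower). In the 10 libraries edgeR called 0 members in males, against 0.196% of all tested genes (0.0581% higher and 0.138% lower), and 12 had an unadjusted p under 0.05, against 8% of genes. In females of the 10 libraries it called 3, all lower, namely Cyp2c37, Cyp2c40 and Cyp2c69, against 1.71% of all tested genes (0.763% higher and 0.944% lower).

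The members with the smallest p for a genotype difference that varied with sex were Cyp2u1, Cyp2c70, Cyp2c69 and Cyp2c38, and none passed. Cyp2c69 (ENSMUSG00000092008) had 37.9, 5.71 and 18.7 CPM in Ahr-null females against 155, 104 and 128 CPM in control females. In males it had 2.80, 6.98 and 6.16 CPM in Ahr-null livers against 2.86, 6.82 and 5.80 CPM in control livers. The female groups stood well apart, with Ahr-null female 2 at the level of males, and the male groups overlapped. The fold change in females was -2.64 ± 0.58 (edgeR adjusted p = 0.101), and -3.38 ± 0.50 in the 10 libraries (adjusted p = 0.0105), while in males it was 0.03 ± 0.57 (adjusted p = 1.0). Cyp2u1 (ENSMUSG00000027983), a fatty acid hydroxylase, had 4.41, 3.67 and 3.09 CPM in Ahr-null females against 2.21, 1.20 and 1.08 CPM in control females. It had 8.48, 21.5 and 13.3 CPM in Ahr-null males against 29.5, 28.7 and 14.8 CPM in control males. Its fold change was 1.28 ± 0.43 in females (edgeR adjusted p = 0.219) and -0.76 ± 0.37 in males (adjusted p = 0.890).

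Cyp2c70 (ENSMUSG00000060613), the enzyme that makes muricholic acids in mice, had 46, 37.9 and 38.4 CPM in Ahr-null females against 90.7, 53.6 and 105 CPM in control females, groups that did not overlap. In males it had 68.6, 88.9 and 61.7 CPM in Ahr-null livers against 31.7, 70.6 and 38.9 CPM in control livers. Its fold change was -1.03 ± 0.34 in females (edgeR adjusted p = 0.221) and 0.63 ± 0.34 in males (adjusted p = 0.920). Cyp2c38 (ENSMUSG00000032808) had 23.7, 15.1 and 18.2 CPM in Ahr-null females against 37.1, 55.8 and 45.5 CPM in control females, and 11.5, 5.51 and 22.1 CPM in Ahr-null males against 11.5, 13.5 and 12.8 CPM in control males. The female groups of Cyp2c38 parted and the male groups overlapped. The test of the difference itself passed for none of these: edgeR called 0 of 36 members in the interaction, against 0.00733% of all tested genes (0.00733% higher and 0% lower), and 5 members had an unadjusted p under 0.05, against 4.6%. DESeq2 called 0 members, against 0.148% of genes, and limma-voom 0, against 0.00733%. In the 10 libraries edgeR called 0 as well, against 0.0291% of all tested genes (0.0218% higher and 0.00726% lower), and 7 had an unadjusted p under 0.05, against 7.27%. The interaction, male minus female, was -2.04 ± 0.57 for Cyp2u1 (edgeR adjusted p = 0.836), 1.66 ± 0.48 for Cyp2c70 (adjusted p = 0.847) and 2.67 ± 0.80 for Cyp2c69 (adjusted p = 0.847). For Cyp2c38 it was 1.34 ± 0.56 (edgeR adjusted p = 0.999).

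The second question was how far the sexes differed within each genotype. In Ahr-null livers 1 of 36 members passed, Cyp2d9, higher in males (2.78%, against 0.279% of all tested genes, 0.227% higher and 0.0513% lower). In controls 4 passed, Cyp2d9 and Cyp2u1 higher in males and Cyp2c69 and Cyp2a22 lower in males (11.1%, against 0.352% of all tested genes, 0.198% higher and 0.154% lower). The sexes parted in 11 members in Ahr-null livers, 6 higher and 5 lower in males (11.2% of tested genes parted, 4.83% higher and 6.38% lower). In controls the sexes parted in 15 members, 7 higher and 8 lower in males (18.6% of tested genes, 9.38% higher and 9.19% lower). In the 10 libraries 4 members passed in Ahr-null livers, Cyp2d9, Cyp2b10 and Cyp2u1 higher and Cyp2a4 lower in males, against 0.799% of all tested genes (0.472% higher and 0.327% lower). In controls 4 passed there too, Cyp2d9 and Cyp2u1 higher and Cyp2c69 and Cyp2c40 lower in males, against 0.574% of all tested genes (0.392% higher and 0.182% lower). A call in one genotype and not in the other does not show that the sex difference changed, and the interaction, which tests that, passed for no member.

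Cyp2d9 differed widely between the sexes whether or not Ahr was present. With the levels given above, its male minus female log2 fold change was 4.34 ± 0.36 in Ahr-null livers (edgeR adjusted p = 0.000133) and 4.53 ± 0.36 in controls (adjusted p = 5.76e-05), and it was called in both genotypes under each of the 19 alternatives. For Cyp2u1 it was 1.95 ± 0.40 in Ahr-null livers (edgeR adjusted p = 0.0715, and 0.0443 in the 10 libraries) and 3.99 ± 0.44 in controls (adjusted p = 0.000835), where it was called under all 19 alternatives. All 8 Cyp2d members had positive male minus female values in both genotypes, with medians of 0.73 in Ahr-null livers and 0.68 in controls, also with library size alone as the scaling; leaving out single libraries turned up to 2 of them negative. Cyp2d34 is among the 8, with the few counts given above. Of the Cyp2d genes other than Cyp2d9, Cyp2d12 had the largest value in controls. It had 5.98, 8.13 and 6.37 CPM in control males against 1.38, 0.436 and 1.91 CPM in control females. That difference was 2.42 ± 0.59 (edgeR adjusted p = 0.187). In Ahr-null livers Cyp2d12 had 2.45, 1.40 and 3.39 CPM in males against 1.56, 0.301 and 1.82 CPM in females, a difference of 1.0 ± 0.58 (adjusted p = 0.695).

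On the female side stood Cyp2a and part of Cyp2c. All 4 Cyp2a members had negative male minus female values in both genotypes (3 of 4 with library size alone as the scaling). Cyp2c69 had a male minus female fold change of -1.97 ± 0.57 in Ahr-null livers (edgeR adjusted p = 0.280) and of -4.64 ± 0.64 in controls (adjusted p = 0.00488, called in 18 of 19 alternatives, all but the one without control male 3). Its close copy Cyp2c40 (ENSMUSG00000025004), which oxidises arachidonic acid, had 30.0, 59.9 and 46.9 CPM in Ahr-null males against 209, 61.9 and 88.7 CPM in Ahr-null females. In controls Cyp2c40 had 66.7, 72.6 and 51.5 CPM in males against 217, 167 and 214 CPM in females, a difference of -1.65 ± 0.42 (edgeR adjusted p = 0.242, and 0.0376 in the 10 libraries). Cyp2c67 (ENSMUSG00000062624), from the same cluster and 97.7% identical to Cyp2c40, lay on the male side, with 94.7, 117 and 158 CPM in Ahr-null males against 78.5, 36.3 and 63.2 CPM in Ahr-null females. In controls it had 97.7, 121 and 93.9 CPM in males against 53.2, 68.7 and 54.6 CPM in females. The groups parted in both genotypes and neither difference passed: it was 1.05 ± 0.32 in Ahr-null livers (edgeR adjusted p = 0.308) and 0.83 ± 0.32 in controls (adjusted p = 0.708).

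Cyp2a22 (ENSMUSG00000091867) had 19.9, 2.64 and 16.7 CPM in Ahr-null males against 68.2, 44.9 and 266 CPM in Ahr-null females, and 5.22, 7.36 and 11.2 CPM in control males against 321, 636 and 87.6 CPM in control females. Females varied widely, from 44.9 to 636 CPM, yet all lay above all males. The difference was -3.27 ± 0.88 in Ahr-null livers (edgeR adjusted p = 0.220) and -5.45 ± 0.98 in controls (adjusted p = 0.0378). In the 10 libraries the control value was -5.22 ± 1.28 (adjusted p = 0.190), and it was called under 9 of 19 alternatives. The call of Cyp2a22 was lost without Ahr-null male 1 or 3, any control male, Ahr-null female 1, or control female 1 or 2, and leaving out single libraries gave values of -5.90 to -4.68. Cyp2a4 (ENSMUSG00000074254) had 223, 91.3 and 148 CPM in Ahr-null males against 678, 656 and 782 CPM in Ahr-null females, and 89.2, 216 and 199 CPM in control males against 656, 486 and 269.8 CPM in control females. The sexes parted in both genotypes, with differences of -2.19 ± 0.46 in Ahr-null livers (edgeR adjusted p = 0.0819, and 0.0252 in the 10 libraries) and -1.48 ± 0.45 in controls (adjusted p = 0.428). Cyp2b10 was on the male side, with differences of 2.20 ± 0.44 in Ahr-null livers (edgeR adjusted p = 0.0712, and 0.0346 in the 10 libraries) and 1.43 ± 0.45 in controls (adjusted p = 0.472).

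**Figure D4:**
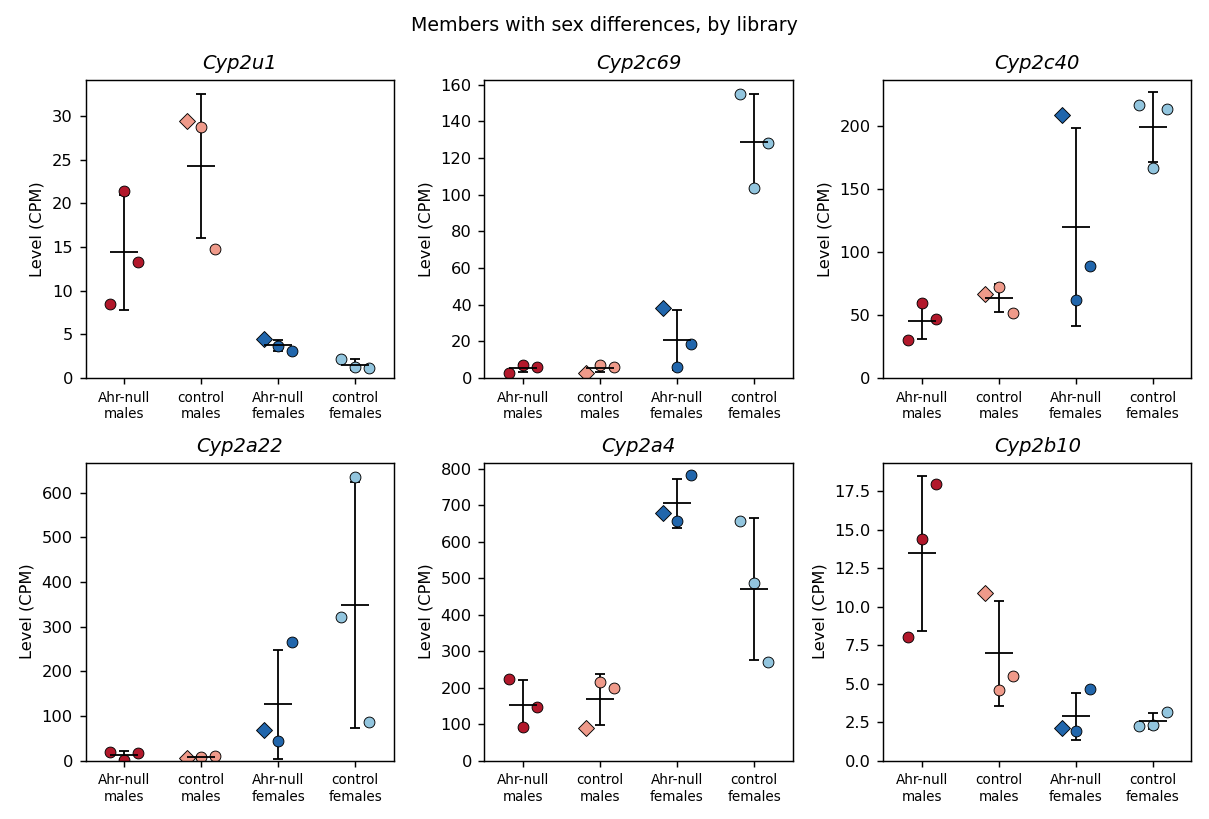
CPM in each liver (points) with the mean and SD of 3 (bars) for 6 members with sex differences; diamonds mark control male 1 and Ahr-null female 1. Cyp2u1 and Cyp2b10 are higher in males, the other 4 in females, and the female mean of Cyp2c69 is 20.8 CPM in Ahr-null livers, against 129 CPM in controls.

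**Figure D5:**
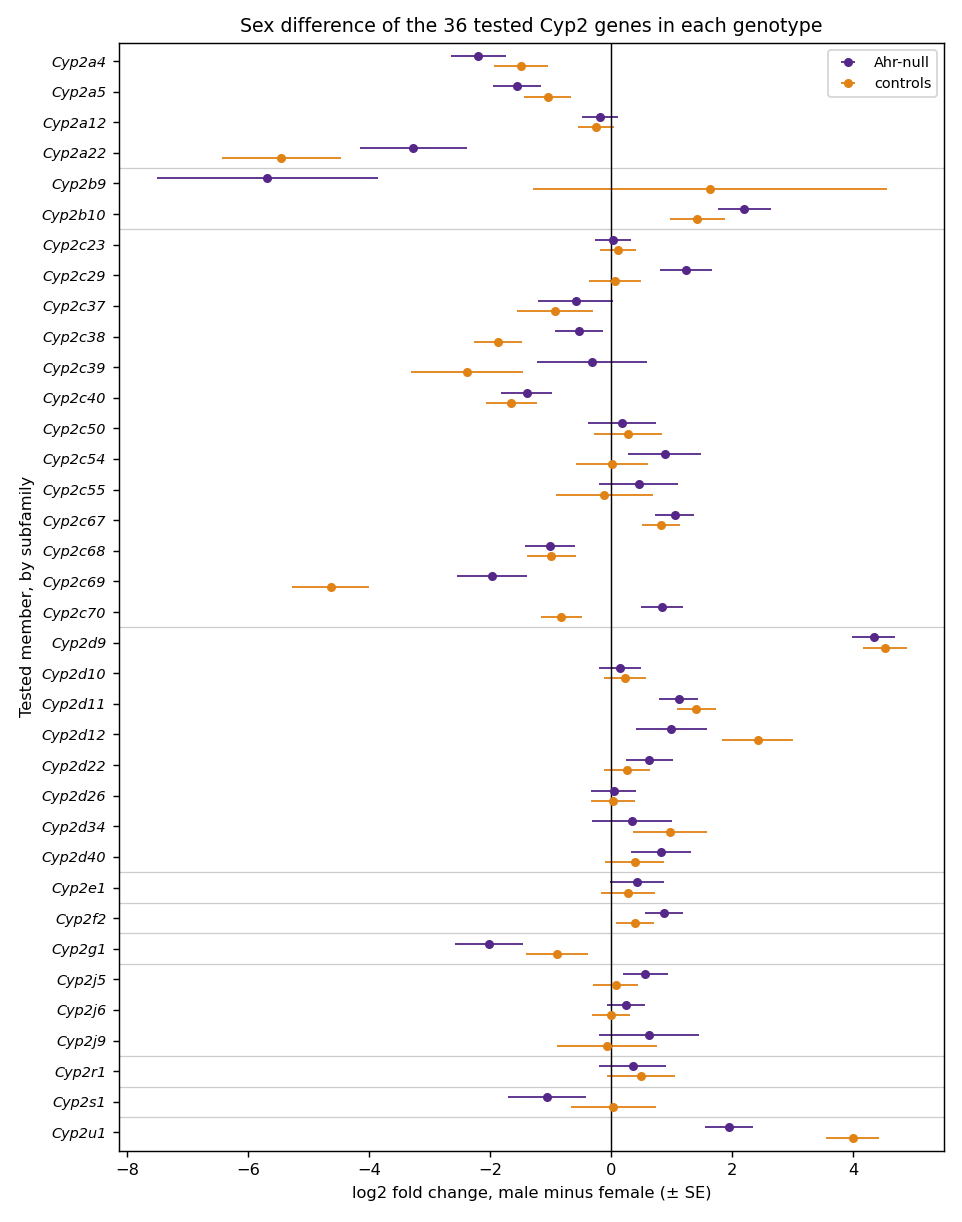
Log2 fold change, male minus female, ± SE for the 36 tested members in Ahr-null and control livers from 1 edgeR fit of 12 libraries. In controls Cyp2d9 and Cyp2u1 lie furthest to the right, and Cyp2a22 and Cyp2c69 furthest to the left. Among the Ahr-null values Cyp2b9 lies furthest to the left, at -5.69, with the uneven counts given above, and was not called.

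The subfamilies made up different parts of the family's counts in the sexes. The Cyp2d genes gave 30.8% to 33.9% of the family's counts in Ahr-null males and 30.7% to 31.7% in control males, against 14.8% to 17.8% in Ahr-null females and 10.2% to 15.6% in control females. Much of this gap came from 1 gene, Cyp2d9. It had 9891, 12089 and 11109 of 62212, 82616 and 80880 family counts in control males. In control females it had 471, 323 and 476 of 97946, 53058 and 76954. The share of the other Cyp2d genes is not given here. The Cyp2a genes gave 13.8% to 32.8% in Ahr-null males and 17.6% to 21.2% in control males, against 39.8% to 58.9% in Ahr-null females and 25.2% to 44.8% in control females. Cyp2c took 19.5% to 31.6% in Ahr-null males and 23.9% to 33.4% in control males, and 15.3% to 31.6% in Ahr-null females and 29.6% to 37.1% in control females. Cyp2b stayed under 1% apart from Ahr-null female 3, where it was 4.4%.

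The remaining members showed smaller differences or low levels. Cyp2f2 (ENSMUSG00000052974), a periportal gene that activates naphthalene, had 118, 191 and 217 CPM in Ahr-null males against 151, 221 and 141 CPM in control males, and 75.7, 91.8 and 119 CPM in Ahr-null females against 138, 115 and 139 CPM in control females. Its averaged fold change was -0.21 ± 0.22 (edgeR adjusted p = 0.711). Cyp2j5 (ENSMUSG00000052520), an epoxygenase of kidney and liver and the highest Cyp2j gene per kb, had 40.9, 54.6 and 98.6 CPM in Ahr-null males against 43.8, 60.4 and 60.7 CPM in control males. In females Cyp2j5 had 67.1, 28.1 and 36 CPM in Ahr-null livers against 51.8, 50.1 and 54.2 CPM in control livers, and its averaged fold change was -0.01 ± 0.26 (edgeR adjusted p = 0.993). Cyp2r1 (ENSMUSG00000030670), a vitamin D hydroxylase, had 1.58, 2.09 and 3.59 CPM in Ahr-null males against 2.78, 2.09 and 2.61 CPM in control males, and 3.12, 0.842 and 1.82 CPM in Ahr-null females against 0.690, 3.05 and 1.67 CPM in control females. These groups overlapped in both sexes. Cyp2s1, which Ahr ligands induce in other tissues, had 0.118, 0.543 and 0.513 CPM in Ahr-null males against 0.505, 0.232 and 0.510 CPM in control males, and 0.827, 1.08 and 0.497 CPM in Ahr-null females against 0.207, 0.546 and 0.500 CPM in control females. Its fold change was 0.41 ± 0.48 (edgeR adjusted p = 0.740).

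The 4 members that were not tested were Cyp2b13, given above, Cyp2c65, Cyp2j8 and Cyp2t4. Cyp2t4 had 7, 2 and 2 counts in Ahr-null males against 7, 0 and 5 in control males, and 3, 9 and 3 in Ahr-null females against 7, 0 and 4 in control females. Cyp2j8 had 3, 1 and 2 counts in Ahr-null males against 10, 4 and 5 in control males, and 0, 5 and 1 in Ahr-null females against 6, 0 and 10 in control females. All 10 counts of Cyp2c65 were in Ahr-null livers, 0, 1 and 6 in males and 0, 1 and 2 in females. Cyp2c65 met the rule of at least 10 counts only through those livers. The split is therefore not read as a genotype difference. Over the 12 libraries, pairs of members of 1 subfamily had a median within-group correlation of 0.35 (116 pairs), against 0.14 for other pairs (514 pairs); over the 10 libraries the medians were 0.49 and 0.11.

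Genes that work with the family were examined from lists written with earlier results known. Of 13 genes for electron transfer and haem supply, 0 passed in the average with edgeR and 2 had an unadjusted p under 0.05 (1, Cpox, fell in the 10 libraries), and Por itself had a fold change of -0.22 ± 0.22 (adjusted p = 0.701). Of 18 receptors and factors 0 passed with edgeR and 7 had an unadjusted p under 0.05, while Nr1i3 and Cebpa fell in the 10 libraries. Over all tested genes, the share with an unadjusted edgeR p under 0.05 was 5.81% in males and 14.4% in females. That share is not given for the average, so the unadjusted counts of these lists are not compared with it. Nr1i3, the receptor CAR, had 8.29, 15.7 and 4.62 CPM in Ahr-null males against 17.3, 32.2 and 39.6 CPM in control males. It had 2.39, 14.9 and 22.9 CPM in Ahr-null females against 65.4, 35.7 and 62.6 CPM in control females, so that the groups parted in both sexes. Over both sexes the fold change of Nr1i3 was -1.83 ± 0.45 (edgeR adjusted p = 0.0798, and 0.0112 in the 10 libraries). Of 18 tested CAR and PXR target genes outside the family 1 rose, Gstm3, and 0 fell. Over all tested genes 0.528% rose and 0.528% fell. The 10 libraries gave 0 and 2 of the 18, against 1.5% and 1.63% of all tested genes.

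Of 14 pericentral genes outside the family 3 fell, Cyp1a2, Glul and Nkd1, and 0 rose. Over all tested genes 0.528% fell and 0.528% rose. In the 10 libraries 7 of the 14 were lower, against 1.63% of all tested genes (1.5% were higher). The list median with 12 libraries was -0.62 against 0.04 over all genes. Glul, the glutamine synthetase next to the central vein, fell by 1.55 ± 0.24 (edgeR adjusted p = 0.0143), and Nkd1, a Wnt target, fell by 1.41 ± 0.20 (adjusted p = 0.0118). Of 13 tested periportal genes 2 rose, Aldh1b1 and Cdh1, and 0 fell, with a list median of 0.34. Over the 10 libraries 1 of the 13 rose, Cdh1 (edgeR adjusted p = 0.0287), while Aldh1b1 had an adjusted p of 0.0529. Of 32 tested genes of other P450 families 3 fell, Cyp1a1, Cyp1a2 and the cholesterol hydroxylase Cyp46a1, with a list median of -0.15. Whether the share of pericentral hepatocytes differed between these livers was not tested.

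Of 12 regulators of growth hormone signalling and sex bias, 1 passed for genotype, against 1.06% of all tested genes. This was Tox, which fell by 1.86 ± 0.31 (edgeR adjusted p = 0.0164). Between control males and control females 2 of the 12 passed, against 0.352% of all tested genes. They were the female-biased repressor Cux2 (-4.49 ± 0.81, edgeR adjusted p = 0.0385) and the prolactin receptor gene Prlr (-2.48 ± 0.46, adjusted p = 0.0426). Prlr was also called there in the 10 libraries (edgeR adjusted p = 0.0301) and Cux2 was not (adjusted p = 0.0946). In Ahr-null livers 0 of the 12 passed with edgeR in all 12 libraries, and 2 had an unadjusted p under 0.05. The share of all tested genes at that unadjusted threshold is not given for this contrast. Cux2 had 1.14, 1.47 and 0.434 CPM in Ahr-null males against 4.59, 31.5 and 21.2 CPM in Ahr-null females, where the lowest female was the library with neural transcripts, and its difference was -4.28 ± 0.82 (adjusted p = 0.0574, and 0.0346 in the 10 libraries).

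Markers of other tissues and cell types were summed in each liver. The 6 kidney tubule markers summed to at most 1.63 CPM in any liver, with Umod at 0 in all. Of the 5 airway secretory markers, which include Cyp2f2, Scgb3a2 was at 0 throughout and Scgb1a1 did not exceed 0.110 CPM, while the sum of the 5 was 75.8 to 221 CPM, nearly all of it Cyp2f2. The 6 intestinal markers summed to 5.89 to 31.4 CPM, mostly from Fabp2, with Sis and Alpi at 0. Markers of T, NK and B cells (9 of 10 matched) summed to 7.70 to 11.2 CPM in Ahr-null males against 2.19 to 8.41 CPM in control males. Their sum was 11.9 to 18.6 CPM in Ahr-null females against 5.33 to 6.33 CPM in control females, groups that did not overlap. The 8 stellate cell and fibroblast markers summed to 304 to 553 CPM in Ahr-null males against 257 to 549 CPM in control males, and to 459.6 to 1178 CPM in Ahr-null females against 329 to 504 CPM in control females. Of the 6 steroidogenic markers Cyp11b1 and Cyp11b2 were at 0, and the sum was mostly Cyp17a1. That sum was 30.9 to 46.1 CPM in Ahr-null males against 10.1 to 12.3 CPM in control males, groups that did not overlap. For females it was 35.0 to 71.8 CPM in Ahr-null livers against 41.5 to 127 CPM in control livers. Red blood cell markers (5 of 6 matched) summed to 101 to 640.4 CPM in Ahr-null males against 56.2 to 196 CPM in control males. In females they summed to 192 to 279.6 CPM in Ahr-null livers against 60.7 to 185 CPM in control livers, groups that did not overlap. The 10 cholangiocyte markers summed to 46.7 to 84.8 CPM in Ahr-null males against 34.5 to 65.6 CPM in control males, and to 48.5 to 266 CPM in Ahr-null females against 27.1 to 122.7 CPM in control females. The 8 endothelial markers summed to 150.4 to 182 CPM in Ahr-null males against 167 to 168 CPM in control males, and to 131 to 219 CPM in Ahr-null females against 182 to 216 CPM in control females. Kupffer cell and macrophage markers, 12 in all, summed to 294 to 443 CPM in Ahr-null males against 282 to 354 CPM in control males, and to 387 to 512 CPM in Ahr-null females against 447 to 671 CPM in control females. The part of these cells in the family's values was not tested.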

How the data were processed

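The authors deposited whole-number read counts per gene for 12 libraries, the unit used here, and variance-stabilised values, which were not used here. The submitters' processing notes list the build GRCm38 and, among the tools, STAR 2.7.8, DESeq2 1.28.1, Trim Galore 0.6.5 and FastQC 0.11.8. They do not name the program that counted reads, its strand option or the gene models. Groups came from the labels, which name genotype and sex but no litter or batch. Each library was treated as 1 mouse.

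Counts were fitted with edgeR 4.0.16 in R 4.3.3 (filterByExpr by the 4 groups, TMM scaling, robust quasi-likelihood, 8 residual degrees of freedom, two-sided tests, Benjamini-Hochberg adjustment over 13641 genes, or 13768 for the 10 libraries). CPM per kb used the union of GENCODE exons. Within a group, pairs of libraries differed by a chi-square of 22.1 to 265 per degree of freedom, so each was counted as its own sample. Depth limits the low members, since 1 count was worth at most 0.102 CPM before TMM scaling. Alternatives were RLE scaling, library size alone, no filter, a filter of 10 counts in 3 libraries, DESeq2 1.42.0, limma-voom (limma 3.58.1), the 10 libraries and leaving out each library. The procedure was tested on simulated data.

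The members and lists were chosen with earlier results of these data known. Values in every library are given for members called in any contrast with 12 or 10 libraries, the highest member per kb of each subfamily and the 4 members with the smallest p per contrast. Cyp2d12, Cyp2c67, Cyp2j8 and Por were added after their values were seen. Cyp2b13 and Cyp2c65, which were not tested, are also given by library and meet none of these rules.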

Additional observations from a re-analysis of the deposited data

How the results depend on the processing

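No paired analysis was possible because the replicate numbers follow accession order and pair no livers across groups. The number of called members moved with the settings, and so did the share of all tested genes called. Averaged over the sexes, edgeR called 1.06% of them, and 3.14% without the 2 libraries with neural transcripts. In females edgeR called 0.161%, or 1.71% without those 2 libraries, and DESeq2 called 3.62%. In males edgeR called 0.0367% and DESeq2 0.782%. A higher count of members is therefore not read as a gain of the family alone. No such share is given for the other settings of the average or for single libraries left out. For the sexes edgeR called 0.279% in Ahr-null livers and 0.352% in controls, or 0.799% and 0.574% without those 2 libraries. Their other settings have no such share here, so those counts are not compared with all genes. Averaged over the sexes 1 member was called. The count was 4 with library size alone, 2 without a low-count filter, 9 with DESeq2, 2 with limma-voom and 8 without the 2 libraries with neural transcripts. Leaving out single libraries gave 0 to 9, with 4 without Ahr-null male 2, 9 without Ahr-null female 1 and 0 without any other. In males the count was 0, and 2 with DESeq2. In females it was 0, and 4 with DESeq2, 3 without the 2 libraries and 0 to 3 leaving out single ones (3 without Ahr-null female 1). For the sexes in Ahr-null livers it was 1, and 3 with library size alone, 3 without a filter, 7 with DESeq2, 4 without the 2 libraries and 1 to 3 leaving out single ones. For the sexes in controls it was 4, and 8 with DESeq2 and 2 to 6 leaving out single ones (2 without control male 3). The interaction gave 0 under all 19 alternatives.

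The family's share of counts was 0.764% ± 0.0753 (SD, n = 3) in Ahr-null males and 1.10% ± 0.139 in control males, 0.894% ± 0.131 in Ahr-null females and 1.25% ± 0.128 in control females. With mitochondrial genes in the total it was 0.455%, 0.528%, 0.435% and 0.491% in that order. Among the alternatives for the fold changes of named members 1374 kept their direction and call, 21 lost a call, 68 gained one and 0 turned round. Only a result called with all 12 libraries could lose a call, and most named results were not called there. Cyp2c54 in the average kept its call in 9 of 19 alternatives, Cyp2a22 in controls in 9 and Cyp2c69 in controls in 18. Cyp2d9 in both genotypes and Cyp2u1 in controls kept theirs in all 19. Members with few counts, such as Cyp2b9, Cyp2c55 and Cyp2g1, are limited by depth.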
